A study of Homo sapiens with 16 samples.

Results

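Untreated SKBR3 cells were compared with untreated MDA-MB-231 cells across all genes, in 8 of the 16 RNA sequencing libraries of a study of gene expression in these breast cancer lines. The libraries were chosen by their labels alone: the 3 control libraries of SKBR3 and the 5 control libraries of MDA-MB-231, with no library of cells given the study's agent, MitoQ. SKBR3 was at passage 10 and MDA-MB-231 at passage 25. The effect of passage, or of any other difference in handling between the 2 sets of libraries, cannot be told apart from that of the line. Both lines were established from pleural effusions of breast adenocarcinoma and were grown in the same high-glucose DMEM with 10% fetal bovine serum. The sources used here do not say what the control cells received, or whether the libraries of a line came from separate cultures. P-values therefore measure only the spread between these libraries, which may be technical. Each line is a single model, and a difference between them is not a difference between breast cancer subtypes.

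As background, breast epithelium has an inner layer of luminal cells, which secrete and are sealed to each other by tight and adherens junctions, and an outer basal layer that touches the matrix. SKBR3 carries an amplification of ERBB2, which encodes the receptor tyrosine kinase HER2, and is usually grouped with luminal-type lines that lack the oestrogen receptor. MDA-MB-231 lacks the oestrogen receptor, the progesterone receptor and ERBB2 amplification (triple-negative) and is the usual example of a breast cancer line with mesenchymal traits, in which epithelial genes are low and genes of fibroblast-like cells, such as vimentin, are high.

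Libraries held 14723152 to 27841144 estimated counts in SKBR3 and 23612986 to 29294865 in MDA-MB-231. A count of 0 allowed up to 0.104 to 0.199 CPM in a single library, and up to 0.0487 CPM over the SKBR3 group and 0.0234 CPM over the MDA-MB-231 group, for counting error only. The line labels were checked with ERBB2, CDKN2A and the keratins, whose values follow. The lines separated on the first principal component, and the lowest correlation between 2 libraries of a line was 0.991. Levels are normalised CPM, which scale counts by library size, and mean ± SD refers to 3 SKBR3 and 5 MDA-MB-231 libraries. Fold changes are SKBR3 over MDA-MB-231 unless said otherwise. A gene is called higher in a line where the edgeR test against a 2-fold difference gave a Benjamini-Hochberg adjusted p under 0.05, and each adjusted p printed beside a gene is from that test unless the plain test is named. A high adjusted p from it means that a difference past 2-fold was not shown, and a smaller difference can remain. Where a line had no count at all, the fold is a lower bound set by 3 counts over the group.

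Most genes tested differed between the lines, so direction and size matter more than the call. Of 16398 genes tested, 14177 (86.5%) differed in the plain edgeR test, 6889 (42.0%) higher in SKBR3 and 7288 (44.4%) higher in MDA-MB-231. Past 2-fold, 3009 genes (18.3%) were higher in SKBR3 and 3722 (22.7%) higher in MDA-MB-231, together 41.0%, and the median log2 fold change over all genes was -0.02. Past 4-fold the shares were 8.47% and 12.7%. The libraries of the lines did not overlap for 83.0% of genes tested. These shares are the background for each count of list members that follows. The lists were chosen with earlier results of these data known, and some share genes. The list counts are therefore descriptions and no test. Among protein-coding genes, 32 had at most 3 counts over all MDA-MB-231 libraries and at least 10 CPM in SKBR3, and 110 had the reverse pattern. The MDA-MB-231 group was sequenced to 128989769 counts in sum and the SKBR3 group to 61210585, so a limit of 3 counts is a lower level in MDA-MB-231.

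**Figure D1:**
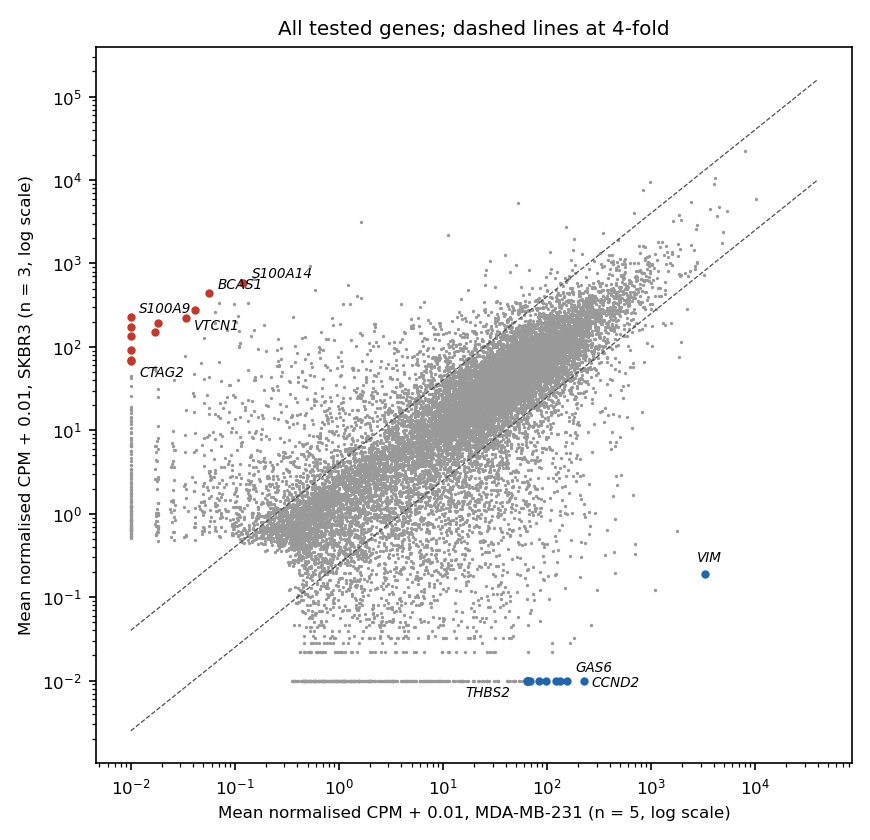
Mean normalised CPM plus 0.01 of each of the 16398 tested genes in MDA-MB-231 (horizontal, n = 5) against SKBR3 (vertical, n = 3), both on log scales, with dashed lines at 4-fold. Coloured points are the 12 genes ranked highest by fitted fold change in each direction, red for SKBR3 and blue for MDA-MB-231, and most of them lie at the edge where the other line had no count.

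Among protein-coding genes with at least 50 CPM in the higher line and no overlap between the libraries, the gene ranked first toward SKBR3 by fitted fold change was S100A9 (ENSG00000163220, chr1:153357854-153361027), a calcium-binding protein that pairs with S100A8. It had 206, 244 and 236 CPM in the SKBR3 libraries and no count in any of the 5 MDA-MB-231 libraries, at least 9780-fold higher in SKBR3 (adjusted p = 2.05e-15). Next to it on chromosome 1, S100A8 had 50.4, 40.7 and 42.2 CPM in the SKBR3 libraries and no count in any of the 5 MDA-MB-231 libraries. VGLL1, a cofactor of the TEAD transcription factors, had 99.9, 88.2 and 85.8 CPM in the SKBR3 libraries and no count in any of the 5 MDA-MB-231 libraries, at least 3870-fold higher. PRR15 was at least 2950-fold higher in SKBR3 and CTAG2, a cancer-testis antigen on the X chromosome with 50.9% of its 31-base stretches also found in other transcripts, at least 2990-fold. BCAS1, a gene named from amplified regions in breast cancer, stood at 438 against 0.0466 CPM, 8400-fold higher. VTCN1, which encodes the T cell inhibitory ligand B7-H4, was 9540-fold (95% counting interval 3260 to 46200) higher, at 224 against 0.0239 CPM, and S100A14 5160-fold. Ranks among genes with no or few counts in the lower line rest on fitted values and are not set by the bounds printed. The other 5 of the 12 were histone genes of a single block, described further on.

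By the same rule, the gene ranked first toward MDA-MB-231 was CCND2 (ENSG00000118971, chr12:4273772-4305350), which encodes the G1 cyclin D2. It had 212, 248, 224, 227 and 213 CPM in the MDA-MB-231 libraries and no count in any of the 3 SKBR3 libraries, at least 4620-fold higher in MDA-MB-231 (adjusted p = 6.74e-21). GAS6, the secreted ligand of the receptor AXL, had 163, 149.7, 155, 158 and 153 CPM in the MDA-MB-231 libraries and no count in any of the 3 SKBR3 libraries, at least 3200-fold higher. AXL itself, a receptor tyrosine kinase, had 1788, 1900, 1817, 1712 and 1723 CPM in the MDA-MB-231 libraries and 0.268, 0.861 and 0.681 CPM in the SKBR3 libraries, 2950-fold higher in MDA-MB-231 (adjusted p = 1.06e-25). Ligand and receptor were thus both abundant in MDA-MB-231 and both at or near 0 in SKBR3. VIM (ENSG00000026025, chr10:17228259-17237593), the intermediate filament vimentin of mesenchymal cells, had 3317, 3474, 3375, 3251 and 3277 CPM in the MDA-MB-231 libraries and 0.161, 0.265 and 0.107 CPM in the SKBR3 libraries, 19900-fold higher in MDA-MB-231 (adjusted p = 1.11e-27). The other 9 had no count in any SKBR3 library: MT1E, a metallothionein (at least 2730-fold higher in MDA-MB-231), FLG, the epidermal filament protein filaggrin (at least 2520-fold), FAM171A1 (at least 2030-fold), CELF2, an RNA-binding splicing factor (at least 1730-fold), SPANXA2 (at least 1400-fold, with all of its sequence shared with paralogues), LPAR1, a lysophosphatidic acid receptor (at least 1350-fold), THBS2, a matrix thrombospondin (at least 1340-fold), EVI2A (at least 1320-fold) and CAVIN2, a coat protein of caveolae (at least 1320-fold).

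Transcription factors of luminal and epithelial cells were higher in SKBR3. Of 25 tested members of this list, 20 were higher in SKBR3 past 2-fold against a background of 18.3%, and 1 was higher in MDA-MB-231, with a median log2 fold change of 3.86. GRHL2, which drives genes of the epithelial junctions, had 59.9, 62.5 and 61.6 CPM in the SKBR3 libraries and 0.248, 0.19, 0.173, 0.379 and 0.28 CPM in the MDA-MB-231 libraries, 240.0-fold higher in SKBR3 (adjusted p = 3.37e-23). All 3 SKBR3 libraries were above all 5 of MDA-MB-231 for it. OVOL1 and OVOL2, zinc finger repressors of mesenchymal genes, were 778-fold and 14.1-fold higher. ELF3, an epithelial ETS factor, had 324, 316 and 335 CPM in the SKBR3 libraries and 1.65, 0.876, 1.35, 1.18 and 1.28 CPM in the MDA-MB-231 libraries, 256-fold higher (adjusted p = 4.11e-26). FOXA1, a pioneer factor of luminal chromatin, stood at 189 ± 4.55 CPM in SKBR3 and 2.23 ± 0.238 CPM in MDA-MB-231, and SPDEF, an ETS factor of secretory epithelium, at 180.2 ± 19.7 CPM in SKBR3 and 5.89 ± 0.791 CPM in MDA-MB-231. TFAP2C (AP-2 gamma) was 6.95-fold higher in SKBR3 and XBP1, a factor of the secretory pathway, 9.12-fold. The exception toward MDA-MB-231 was CREB3L1, at 39.2 against 5.68 CPM, 6.9-fold higher there.

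ESR1, PGR and GATA3 are given on their own. ESR1, the oestrogen receptor, had 1.45, 1.19 and 1.25 CPM in the SKBR3 libraries and 0.992, 0.914, 0.9, 1.18 and 1.28 CPM in the MDA-MB-231 libraries, and the libraries of the lines overlapped (log2 fold change 0.31 ± 0.23 (SE), adjusted p = 1). PGR, the progesterone receptor, had 1 count over each group and was not tested. GATA3, a factor that marks luminal cells, had 6.66, 5.63 and 6.81 CPM in the SKBR3 libraries and 12.1, 11.2, 13, 11.5 and 10.9 CPM in the MDA-MB-231 libraries. Every MDA-MB-231 library was above every SKBR3 library for GATA3, the difference passed the plain edgeR test (adjusted p = 4.15e-08), and it did not pass the test against 2-fold (log2 fold change -0.87 ± 0.098 (SE), adjusted p = 1).

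Genes of the luminal surface and secretion had the largest median toward SKBR3 of the 41 gene lists. Of 21 tested, 18 were higher in SKBR3 and none in MDA-MB-231 past 2-fold (1 without SKBR3 library 3), with a median log2 fold change of 5.29. AGR2, an endoplasmic reticulum protein of mucin-secreting cells, had 103, 93.3 and 98.8 CPM in the SKBR3 libraries and 0.372, 0.114, 0.312, 0.169 and 0.359 CPM in the MDA-MB-231 libraries, 363-fold higher in SKBR3 (adjusted p = 1.33e-23). FXYD3, a regulator of the sodium pump, was 1450-fold higher, at 154 against 0.1 CPM. CA12, a membrane carbonic anhydrase, was 9.95-fold higher, at 122 against 12.2 CPM.

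Keratins, the filament proteins of epithelia, were higher in SKBR3 for 9 of 13 tested members and for none in MDA-MB-231. The simple keratins KRT8, KRT18 and KRT19, which luminal cells carry, stood at 2316 ± 100.2 CPM in SKBR3 and 346 ± 14.8 CPM in MDA-MB-231, at 1924 ± 76 CPM in SKBR3 and 478 ± 14.4 CPM in MDA-MB-231, and at 1976 ± 171 CPM in SKBR3 and 184 ± 11.9 CPM in MDA-MB-231. They were 6.7-fold, 4.03-fold and 10.8-fold higher in SKBR3, and all 5 MDA-MB-231 libraries held these transcripts. KRT4, a keratin of stratified mucosa, was in contrast 1110-fold higher in SKBR3, with 164, 152 and 166 CPM in the SKBR3 libraries and 0.0413, 0.152, 0.0693, 0.126 and 0.319 CPM in the MDA-MB-231 libraries. KRT81, a hair keratin, was 6.67-fold higher, and 52.4% of its 31-base stretches occur in other transcripts. Per kilobase of merged exons, the summed keratins reached 2330 ± 139 CPM in SKBR3 and 397 ± 17.4 CPM in MDA-MB-231. Vimentin on the same scale was at 0.0345 ± 0.0155 CPM in SKBR3 and 647 ± 17.3 CPM in MDA-MB-231. MDA-MB-231 thus held both keratins and vimentin, and SKBR3 held keratins with vimentin near 0.

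Junction and polarity genes were higher in SKBR3 for 34 of 45 tested members, against 2 higher in MDA-MB-231, with a median log2 fold change of 3.13. The claudins, which seal tight junctions, differed by unequal amounts. CLDN3 had 37.1, 45.4 and 51.1 CPM in the SKBR3 libraries and 0.62, 0.571, 0.519, 0.716 and 0.399 CPM in the MDA-MB-231 libraries, 78.8-fold higher (adjusted p = 3.32e-18), while CLDN7 was 18.6-fold and CLDN4 7.38-fold higher. EPCAM, a surface adhesion protein, stood at 162 ± 3.99 CPM in SKBR3 and 14 ± 0.89 CPM in MDA-MB-231, 11.6-fold higher in SKBR3. PKP1, a desmosome plaque protein, had 38, 38.3 and 43.5 CPM in the SKBR3 libraries and 0.0413, 0, 0, 0 and 0.0399 CPM in the MDA-MB-231 libraries, a ratio of 2600-fold (95% counting interval 718 to 21500). ST14, the membrane protease matriptase, was 643-fold higher, at 229 against 0.35 CPM. ESRP1 and ESRP2, which set epithelial splicing, were 12.4-fold and 56.3-fold higher in SKBR3. RAB25, a GTPase of apical recycling, had 43.1, 41.6 and 47.3 CPM in the SKBR3 libraries and 0.0826, 0.152, 0, 0 and 0 CPM in the MDA-MB-231 libraries, 847-fold higher (adjusted p = 2.47e-18). DSG2, a desmosomal cadherin, went the other way, at 369 against 112 CPM, 3.28-fold higher in MDA-MB-231.

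CDH1, which encodes E-cadherin, the adhesion protein of adherens junctions, was low in both lines. It had 2.79, 2.65 and 2.76 CPM in the SKBR3 libraries and 2.64, 1.87, 2.67, 2.99 and 2.4 CPM in the MDA-MB-231 libraries, so the libraries overlapped (log2 fold change 0.13 ± 0.17 (SE), adjusted p = 1; plain edgeR test, adjusted p = 0.506). The 169 counts over the SKBR3 group and 321 over the MDA-MB-231 group are above the floor of 3 counts, and every library had some. SKBR3 thus held few counts of CDH1 beside higher counts of most junction genes. CDH2, the neural cadherin that mesenchymal cells use, had 0.909, 0.762, 0.935, 0.505 and 0.559 CPM in the MDA-MB-231 libraries and 0, 0 and 0.0358 CPM in the SKBR3 libraries, below 1 CPM in all 8 libraries.

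The E-box CACCTG is the core sequence that ZEB and SNAI repressors are known to bind in promoters of epithelial genes, and the promoters of RAB25, CDS1 and CRB3 are shown because they hold it close to the start. RefSeq windows were matched for 22 of the 46 list members. Of these, 14 held CACCTG or its reverse complement CAGGTG within 150 bases before at least 1 annotated start, against 12.8% of all 27305 genes with a window. Counted by window, the shares were 48.4% of 31 and 10.6% of 35116. Of the 16 matched members that were higher in SKBR3 past 2-fold, 10 held it. The sequences are the 150 bases before the start, on the gene's strand, from RefSeq on GRCh38.p14, with each match to CACCTG or CAGGTG in capitals.
RAB25: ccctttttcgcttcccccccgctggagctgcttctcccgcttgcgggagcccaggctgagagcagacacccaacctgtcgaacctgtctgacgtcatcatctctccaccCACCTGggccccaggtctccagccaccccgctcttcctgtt
CDS1: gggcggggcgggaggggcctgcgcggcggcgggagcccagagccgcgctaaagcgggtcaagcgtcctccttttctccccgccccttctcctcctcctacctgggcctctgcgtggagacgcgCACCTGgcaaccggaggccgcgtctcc
CRB3: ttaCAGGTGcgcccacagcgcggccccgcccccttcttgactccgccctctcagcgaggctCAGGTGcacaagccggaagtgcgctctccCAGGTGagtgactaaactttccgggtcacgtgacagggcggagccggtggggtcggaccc
RAB25 lies at chr1:156061010-156061159, with its match starting at -41. CDS1, an enzyme of phospholipid synthesis on the list, lies at chr4:84582977-84583126, with a match at -27, and its transcript stood at 102 ± 4.87 CPM in SKBR3 and 2.13 ± 0.503 CPM in MDA-MB-231, 47.3-fold higher in SKBR3. CRB3, a polarity protein of the apical membrane, lies at chr19:6464121-6464270, with matches at -147, -89 and -60, and its transcript stood at 14.5 ± 1.33 CPM in SKBR3 and 0.338 ± 0.143 CPM in MDA-MB-231, 41.8-fold higher. CDS1 and CRB3 were chosen for these windows after their values were seen. A match is a description of the letters and not of binding, which was not measured.

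ZEB1 and ZEB2, repressors of epithelial genes, were both higher in MDA-MB-231. ZEB1 had 91.9, 93.8, 93.9, 94.8 and 91.5 CPM in the MDA-MB-231 libraries and 0.268, 0.0662 and 0.43 CPM in the SKBR3 libraries, 314-fold higher (adjusted p = 1.75e-22). The lowest MDA-MB-231 library was far above the highest SKBR3 library. ZEB2 was 9.29-fold higher, at 38 against 4.08 CPM. SNAI2 (Slug) had 25.9, 26.9, 27.9, 29.2 and 30.7 CPM in the MDA-MB-231 libraries and 0.161, 0 and 0.0358 CPM in the SKBR3 libraries, 400.0-fold higher (adjusted p = 1.76e-18).

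**Figure D2:**
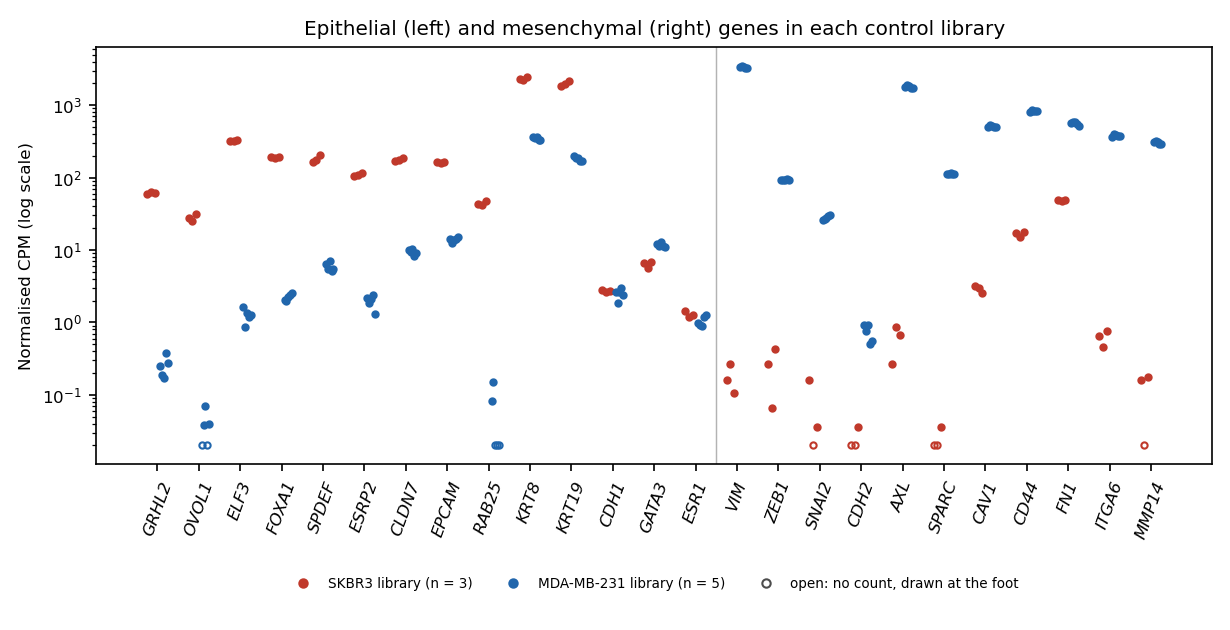
Normalised CPM on a log scale of epithelial genes (left of the line) and mesenchymal genes (right) in each of the 3 SKBR3 (red) and 5 MDA-MB-231 (blue) control libraries, with libraries that had no count drawn as open circles at the foot. Libraries of a line lie close together for each gene at high counts, and CDH1 and ESR1 are the genes whose lines overlap.

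Of the 35 tested mesenchymal genes, 28 were higher in MDA-MB-231 past 2-fold, against a background of 22.7%, and none in SKBR3, with a median log2 fold change of -5.36. SPARC, a matrix-binding protein, had 113, 112, 116, 112 and 113 CPM in the MDA-MB-231 libraries and 0, 0 and 0.0358 CPM in the SKBR3 libraries, a ratio of 6970-fold (95% counting interval 1250 to 275000). CAV1 and CAVIN1, which shape caveolae, had 510.4 against 2.93 CPM and 473 against 2.19 CPM, 177-fold and 220.0-fold higher in MDA-MB-231. NNMT, a methyltransferase, was 102-fold higher, at 25.4 against 0.249 CPM. LOX, which crosslinks collagen, was 371-fold, PMP22 722-fold, and CDH11, a mesenchymal cadherin, 106-fold higher in MDA-MB-231. FN1 (fibronectin) was also present in SKBR3, with 573, 580.5, 584, 556 and 511 CPM in the MDA-MB-231 libraries and 49.5, 47 and 49.4 CPM in the SKBR3 libraries, 11.5-fold higher in MDA-MB-231.

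Basal and stem cell markers went in both directions, 14 of 23 higher in MDA-MB-231 and 6 higher in SKBR3. The surface proteins CD44 and CD24, whose ratio is used to sort breast cancer cells, moved opposite ways. CD44, a hyaluronan receptor, had 796, 848, 819, 819.8 and 827 CPM in the MDA-MB-231 libraries and 17.4, 15.4 and 17.5 CPM in the SKBR3 libraries, 48.7-fold higher in MDA-MB-231 (adjusted p = 3.07e-25). CD24 had 856, 825 and 839 CPM in the SKBR3 libraries and 60.9, 70.2, 66, 71.9 and 69.4 CPM in the MDA-MB-231 libraries, 12.4-fold higher in SKBR3 (adjusted p = 5.55e-23). FOXC1, a factor of basal-like cells, was 76.6-fold higher in MDA-MB-231. ALDH1A3, a retinaldehyde dehydrogenase, was 4.36-fold higher in SKBR3. ENG (endoglin), a TGF-beta co-receptor better known from endothelium, had 45.8, 42.2 and 51 CPM in the SKBR3 libraries and 1.2, 0.952, 1.25, 0.969 and 0.838 CPM in the MDA-MB-231 libraries, 44.3-fold higher in SKBR3. LGR5, a receptor of intestinal stem cells, had 10.2, 12, 12.3, 11.2 and 11.1 CPM in the MDA-MB-231 libraries and no count in any of the 3 SKBR3 libraries.

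Matrix genes were mostly higher in MDA-MB-231, with a few of the other direction. Of the collagens tested, 16 of 24 were higher in MDA-MB-231 and 3 in SKBR3; of the matrix glycoproteins and laminins, 19 of 30 and 6. COL13A1, a transmembrane collagen, had 225, 231, 223, 230.2 and 226 CPM in the MDA-MB-231 libraries and 0.859, 1.19 and 0.932 CPM in the SKBR3 libraries, 232-fold higher in MDA-MB-231 (adjusted p = 2.32e-25). COL6A2 was 203-fold, COL4A1 of basement membranes 70.6-fold and COL7A1 of anchoring fibrils 66.6-fold higher there. EDIL3, an integrin ligand, was 1110-fold higher, at 149 against 0.118 CPM. Toward SKBR3, FBLN2 (fibulin-2) had 171, 183 and 223 CPM in the SKBR3 libraries and 0, 0.0381, 0.0693, 0.0843 and 0.0799 CPM in the MDA-MB-231 libraries, 3220-fold higher (adjusted p = 4.5e-15), and FBLN1 was 19.5-fold higher. The laminin chain LAMA5 had 605, 651 and 802 CPM in the SKBR3 libraries and 104, 94.3, 98.5, 101 and 91.1 CPM in the MDA-MB-231 libraries, 7.02-fold higher in SKBR3.

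Integrins, the receptors for matrix, were higher in MDA-MB-231 for 13 of 23 tested members and in SKBR3 for 3. ITGA6, a laminin receptor chain, had 366, 400.4, 382, 376 and 369.8 CPM in the MDA-MB-231 libraries and 0.644, 0.463 and 0.753 CPM in the SKBR3 libraries, 580.0-fold higher in MDA-MB-231 (adjusted p = 1.06e-25). Its partner ITGB4 was 3.22-fold higher in MDA-MB-231, at 152 against 46.6 CPM, so SKBR3 held ITGB4 with nearly no ITGA6. ITGA3 was 16.1-fold and the fibronectin receptor chain ITGA5 9.3-fold higher in MDA-MB-231. ITGB6, an epithelial chain that activates TGF-beta, was 255-fold higher in SKBR3, with 44.8, 45.9 and 44.9 CPM in the SKBR3 libraries and 0.124, 0.0762, 0.242, 0.0843 and 0.319 CPM in the MDA-MB-231 libraries.

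Matrix proteases and their inhibitors were higher in MDA-MB-231 for 17 of 34 tested list members and in SKBR3 for 5. MMP14, the membrane-bound collagenase, had 312, 319, 312, 291 and 287 CPM in the MDA-MB-231 libraries and 0.161, 0 and 0.179 CPM in the SKBR3 libraries, 2250-fold higher in MDA-MB-231 (adjusted p = 3.35e-24). The protease urokinase (PLAU, 38.4-fold) and its receptor (PLAUR, 17.8-fold) were both higher there. PLAT, the tissue plasminogen activator, was 459-fold higher, and TIMP3, an inhibitor of metalloproteases, 274-fold. MMP15, another membrane-type protease, was 19.8-fold higher in SKBR3, with 64.2, 70.8 and 75.9 CPM in the SKBR3 libraries and 4.63, 3.81, 3.71, 2.78 and 2.79 CPM in the MDA-MB-231 libraries.

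The genes around ERBB2 on chromosome arm 17q were higher in SKBR3 for 23 of 31 tested list members and in MDA-MB-231 for 2, with a median log2 fold change of 2.24. ERBB2 (ENSG00000141736, chr17:39687914-39730426), the gene whose amplification defines the line, had 4923, 5110 and 5811 CPM in the SKBR3 libraries and 54.8, 53.7, 57.5, 49.1 and 50.1 CPM in the MDA-MB-231 libraries, 99.5-fold higher in SKBR3 (adjusted p = 3.07e-24). GRB7, an adaptor protein beside it, had 309, 320.4 and 352 CPM in the SKBR3 libraries and 1.28, 1.14, 1.07, 0.59 and 1.36 CPM in the MDA-MB-231 libraries, 298-fold higher. The fold changes of neighbours were uneven. PGAP3 was 35.6-fold, GSDMB 83-fold, CDK12 17.8-fold, MIEN1 13.6-fold, STARD3 10.7-fold, MED1 8.1-fold and PSMD3 4.3-fold higher. On the side of lower coordinates, RPL19, a ribosomal protein gene, had 9718, 9214 and 9399 CPM in the SKBR3 libraries and 989, 939.7, 993, 936 and 1011 CPM in the MDA-MB-231 libraries, 9.7-fold higher, and LASP1, further out, was 3.8-fold higher in MDA-MB-231. Within the stretch, IKZF3, a lymphocyte factor, stood at 9.27 ± 0.731 CPM in SKBR3 and 10.9 ± 0.839 CPM in MDA-MB-231 (log2 fold change -0.23 ± 0.093 (SE), adjusted p = 1), and NEUROD2 and PNMT did not pass the test either (adjusted p = 1 for each). In the plain edgeR test IKZF3 passed (adjusted p = 0.0294), and NEUROD2 and PNMT did not (adjusted p = 0.619 and 0.307). CSF3, a cytokine gene inside the stretch, was 22.3-fold higher in MDA-MB-231, at 1.58 against 0.0841 CPM (adjusted p = 2.93e-06). On the other side CDC6 was 3.81-fold and RARA 7.39-fold higher in SKBR3, while TOP2A, the target of anthracyclines, had 1123, 1131 and 1089 CPM in the SKBR3 libraries and 1091, 1163, 1152, 1138 and 1139 CPM in the MDA-MB-231 libraries (log2 fold change -0.03 ± 0.039 (SE), adjusted p = 1). IGFBP4 beyond it was 1790-fold higher in MDA-MB-231, at 707 against 0.424 CPM. DNA copy number was not analysed here.

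**Figure D3:**
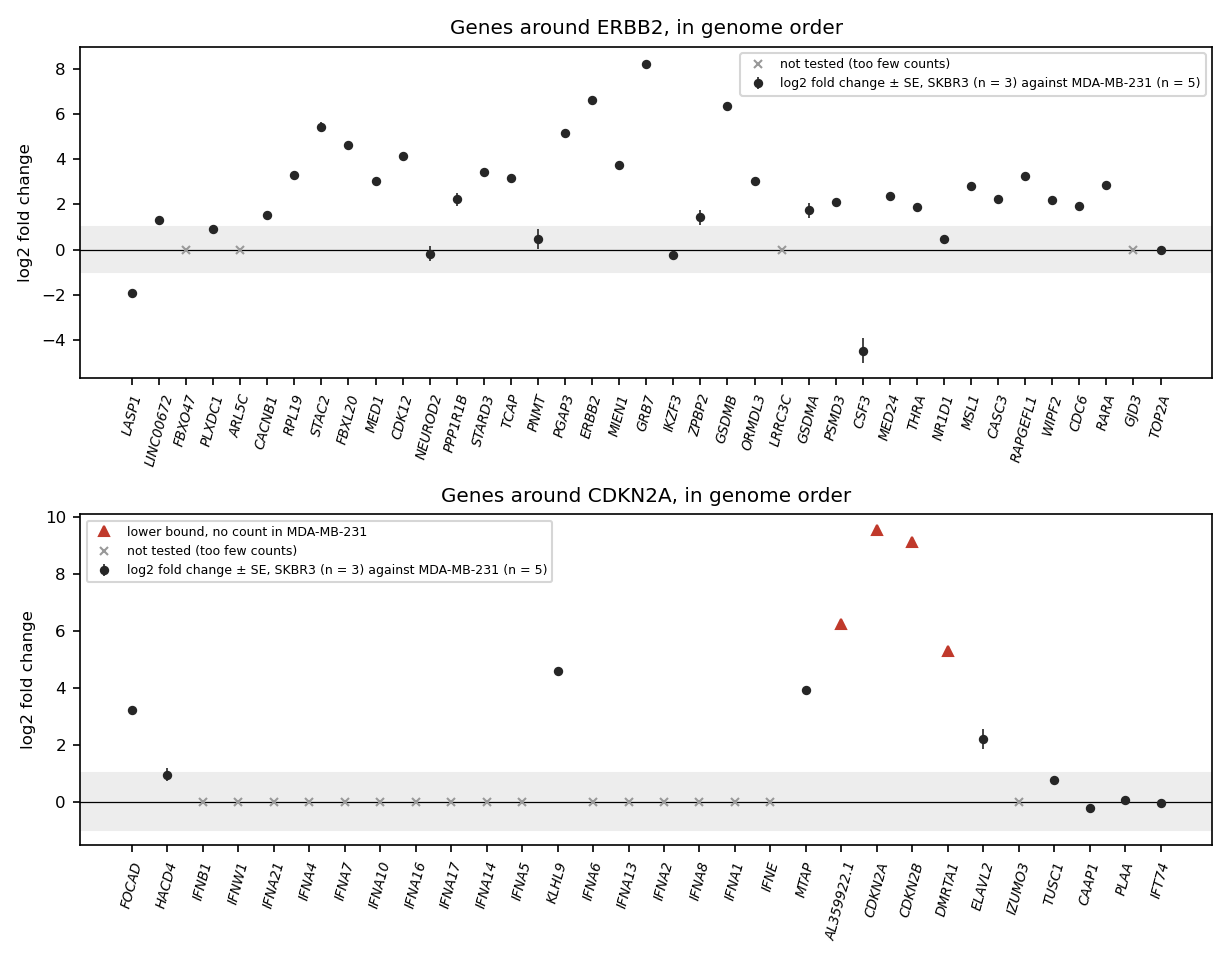
Log2 fold change ± SE of SKBR3 (n = 3) against MDA-MB-231 (n = 5) for neighbouring genes in genome order, from LASP1 to TOP2A (upper panel) and from FOCAD to IFT74 (lower panel), with the band of 2-fold in grey. Triangles are lower bounds for genes with no count in MDA-MB-231, and crosses mark genes not tested. ERBB2 and GRB7 stand at 6.64 and 8.22, and the genes from TUSC1 to IFT74 lie within 2-fold.

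The ERBB receptors and their ligands did not share a direction. ERBB3, the kinase-impaired partner of ERBB2, had 212, 210.4 and 210.5 CPM in the SKBR3 libraries and 6.94, 7.24, 7.31, 7.2 and 7.11 CPM in the MDA-MB-231 libraries, 29.5-fold higher in SKBR3 (adjusted p = 2.16e-25). EGFR was present in both lines, with 402, 447, 436, 440.1 and 408 CPM in the MDA-MB-231 libraries and 166, 173 and 178 CPM in the SKBR3 libraries, 2.48-fold higher in MDA-MB-231. Per kilobase of merged exons, SKBR3 held 512 CPM of ERBB2, 23.4 of ERBB3 and 13.8 of EGFR, and MDA-MB-231 5.14, 0.792 and 34.1. ERBB2 was thus the most abundant receptor of the 3 in SKBR3 and EGFR in MDA-MB-231. Most ligands named by the rule were higher in MDA-MB-231. TGFA, a ligand of EGFR, had 39.1, 38.4, 38.1, 36.2 and 37.1 CPM in the MDA-MB-231 libraries and 0, 0.0662 and 0 CPM in the SKBR3 libraries, a ratio of 2330-fold (95% counting interval 418 to 92000). HBEGF, which binds EGFR and ERBB4, was 38.7-fold, AREG 18.8-fold and NRG1, the neuregulin that binds ERBB3, 55.2-fold higher in MDA-MB-231. EGF alone of those named was higher in SKBR3, at 19.4 against 4.72 CPM (4.11-fold). In the list as a whole, 6 of 17 tested members were higher in SKBR3 and 7 in MDA-MB-231.

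Other receptor tyrosine kinases were higher in MDA-MB-231 for 16 of 35 tested members and in SKBR3 for 10. MET, the receptor of hepatocyte growth factor, was 4.04-fold higher in MDA-MB-231, at 225 against 55.7 CPM. FGFR1 was 70.7-fold higher and ROR1, a Wnt-binding receptor, 315-fold higher there. FGFR3 was 15.7-fold higher in SKBR3. EPHB2 was 49.3-fold higher in MDA-MB-231, and EPHA1 67.9-fold and EPHB6 99.1-fold higher in SKBR3. CSF1R, the macrophage colony-stimulating factor receptor, had 36, 37.7 and 40.8 CPM in the SKBR3 libraries and 2.02, 1.56, 1.73, 1.85 and 1.84 CPM in the MDA-MB-231 libraries, 21.2-fold higher in SKBR3 (adjusted p = 7.21e-20). DDR1, an epithelial collagen receptor, was 7.12-fold higher in SKBR3.

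Targets and feedback genes of the MAP kinase pathway were higher in MDA-MB-231 for 18 of 28 tested members and in SKBR3 for 2, with a median log2 fold change of -1.80 (1 in SKBR3 without MDA-MB-231 library 3 or SKBR3 library 3). DUSP6, the phosphatase that ERK signalling induces against itself, had 112, 110.5, 109, 104 and 99 CPM in the MDA-MB-231 libraries and 0.805, 0.728 and 0.932 CPM in the SKBR3 libraries, 126-fold higher in MDA-MB-231 (adjusted p = 9.43e-23). Of the 31-base stretches of DUSP6, 38.5% also occur in other transcripts. FOSL1, an AP-1 subunit, had 431, 474, 472, 438 and 453 CPM in the MDA-MB-231 libraries and 0.752, 0.927 and 0.896 CPM in the SKBR3 libraries, 524-fold higher. The ETS factors ETV5 and ETV1 were 355-fold and 89.3-fold higher. DUSP4 lay close to the 2-fold border (log2 fold change -1.08 ± 0.049 (SE), adjusted p = 0.0376) and lost the call under 14 of 19 alternatives, 6 of which left out 1 library each (MDA-MB-231 libraries 1 to 4 and SKBR3 libraries 1 and 2, adjusted p = 0.0603 to 0.249). JUNB, another AP-1 subunit, was 3.68-fold higher in SKBR3, and EGR1, an immediate early factor, 2.27-fold (adjusted p = 0.0459). EGR1 lost this call under 6 of 19 alternatives, among them without MDA-MB-231 library 3 (adjusted p = 0.07) and without SKBR3 library 3 (adjusted p = 0.229).

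Targets of YAP and TEAD, which respond to cell shape and density, were higher in MDA-MB-231 for 18 of 29 tested members and in SKBR3 for 2, with a median log2 fold change of -2.32. CCN2 (connective tissue growth factor) had 464, 466, 476, 452 and 458 CPM in the MDA-MB-231 libraries and 6.55, 7.21 and 8.06 CPM in the SKBR3 libraries, 62.9-fold higher in MDA-MB-231 (adjusted p = 4.27e-25). ANKRD1, a nuclear ankyrin-repeat protein, had 450.0, 429, 461, 444 and 466 CPM in the MDA-MB-231 libraries and 0.161, 0.0662 and 0.323 CPM in the SKBR3 libraries, 2090-fold higher. NT5E, the ectonucleotidase CD73, was 33.5-fold higher in MDA-MB-231. TEAD4, a DNA-binding partner of YAP, was 3.37-fold higher in SKBR3, at 66.4 against 19.7 CPM, as was its cofactor VGLL1 above.

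On chromosome arm 9p, MDA-MB-231 had no count of CDKN2A (ENSG00000147889, chr9:21967753-21995301), which encodes the inhibitors p16 and p14ARF. It had 17.6, 16.1 and 18.1 CPM in the SKBR3 libraries and no count in any of the 5 MDA-MB-231 libraries, at least 747-fold higher in SKBR3 (adjusted p = 3.43e-16). Its neighbour CDKN2B (p15) had 13.7, 12.2 and 12.9 CPM in the SKBR3 libraries and no count in any of the 5 MDA-MB-231 libraries, and DMRTA1, further on, 0.644, 0.927 and 1.07 CPM in the SKBR3 libraries and no count in any of the 5 MDA-MB-231 libraries. On the other side, MTAP, the enzyme that recycles methylthioadenosine, was detected in both lines, with 5.25, 3.92, 4.5, 6.24 and 5.43 CPM in the MDA-MB-231 libraries and 72, 77.2 and 78.3 CPM in the SKBR3 libraries, 15-fold higher in SKBR3 (adjusted p = 1.49e-17). KLHL9 was 23.7-fold and FOCAD 9.34-fold higher in SKBR3. Toward the centromere the genes TUSC1, CAAP1, PLAA and IFT74 were within 2-fold, for example PLAA with 65.1, 68 and 66.3 CPM in the SKBR3 libraries and 59.7, 66.8, 65.1, 64.6 and 62.6 CPM in the MDA-MB-231 libraries (log2 fold change 0.06 ± 0.047 (SE), adjusted p = 1). The interferon genes between FOCAD and MTAP had at most 18 counts over either group and were not tested.

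The largest difference of any 15 neighbouring genes was at the histone cluster on chromosome arm 6p. Histone genes come in clusters, and their transcripts supply the proteins that package newly copied DNA. The median log2 fold change of the window was 11.05, and over all 14667 windows of 15 tested protein-coding genes the 5th and 95th percentiles were -1.23 and 1.07. From HIST1H4D to HIST1H2BI (chr6:26188765-26273356, 84.6 kb, GENCODE 29 on GRCh38) the table holds 16 protein-coding rows, 15 of them histones. Their counts summed to 133 over the 5 MDA-MB-231 libraries and to 133380 over the 3 SKBR3 libraries. The edges of the block were drawn from these values, so that the 14 tested rows were all higher in SKBR3 past 2-fold follows from the choice and is no test.

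HIST1H4F (ENSG00000274618, chr6:26240426-26240737), a gene of the core histone H4, had 174, 173 and 179 CPM in the SKBR3 libraries and no count in any of the 5 MDA-MB-231 libraries. HIST1H1D, a gene of the linker histone H1, had 326, 349.8 and 335 CPM in the SKBR3 libraries and 0.0413, 0.0762, 0.104, 0 and 0.0799 CPM in the MDA-MB-231 libraries, 4980-fold higher in SKBR3 (adjusted p = 7.27e-27). HIST1H2BH, a gene of histone H2B, had 200.1, 194 and 193 CPM in the SKBR3 libraries and 0.0413, 0, 0, 0 and 0 CPM in the MDA-MB-231 libraries, a ratio of 25000-fold (95% counting interval 4490 to 988000). In the block, 13 rows reached 50 CPM in SKBR3, and 15 had at most 20 counts over all MDA-MB-231 libraries. The highest, HIST1H3E, had 49. HIST1H4D at the edge was low in both lines (1.25 against 0.0578 CPM), and HIST1H3D and HIST1H4G had 1 count or none and were not tested. Of the 31-base stretches of HIST1H2AD, 98.1% also occur in other transcripts, so reads may have been split between copies, and for AL031777.3, a row that overlaps the cluster, the share is 57.4%.

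Of the 17 HIST1 rows left in the stretch outside the block, 16 were tested and 14 were higher in MDA-MB-231 past 2-fold. They remain after the rows near 0 in MDA-MB-231 were set apart, so this count too is a description. At least 50 CPM was reached by 14 of the 17 in MDA-MB-231 and by 12 in SKBR3. HIST1H1E, an H1 gene before the block, had 1119, 1078, 1121, 1016 and 1137 CPM in the MDA-MB-231 libraries and 405, 397 and 421 CPM in the SKBR3 libraries, 2.68-fold higher in MDA-MB-231 (adjusted p = 1.35e-09). HIST1H2BC, an H2B gene, was 3.01-fold higher, at 582 against 193 CPM. HIST1H2BE, the last row before the block, was 24-fold higher in MDA-MB-231, at 57.5 against 2.42 CPM, and HIST1H4H, the first row after it, had 302, 297, 297, 266 and 303 CPM in the MDA-MB-231 libraries and 159, 133 and 131 CPM in the SKBR3 libraries (log2 fold change -1.06 ± 0.063 (SE), adjusted p = 0.144). HIST1H4H passed the test without SKBR3 library 1 (adjusted p = 0.00199), with no filter on low counts (0.0124) and with the replicate block (0.038).

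**Figure D4:**
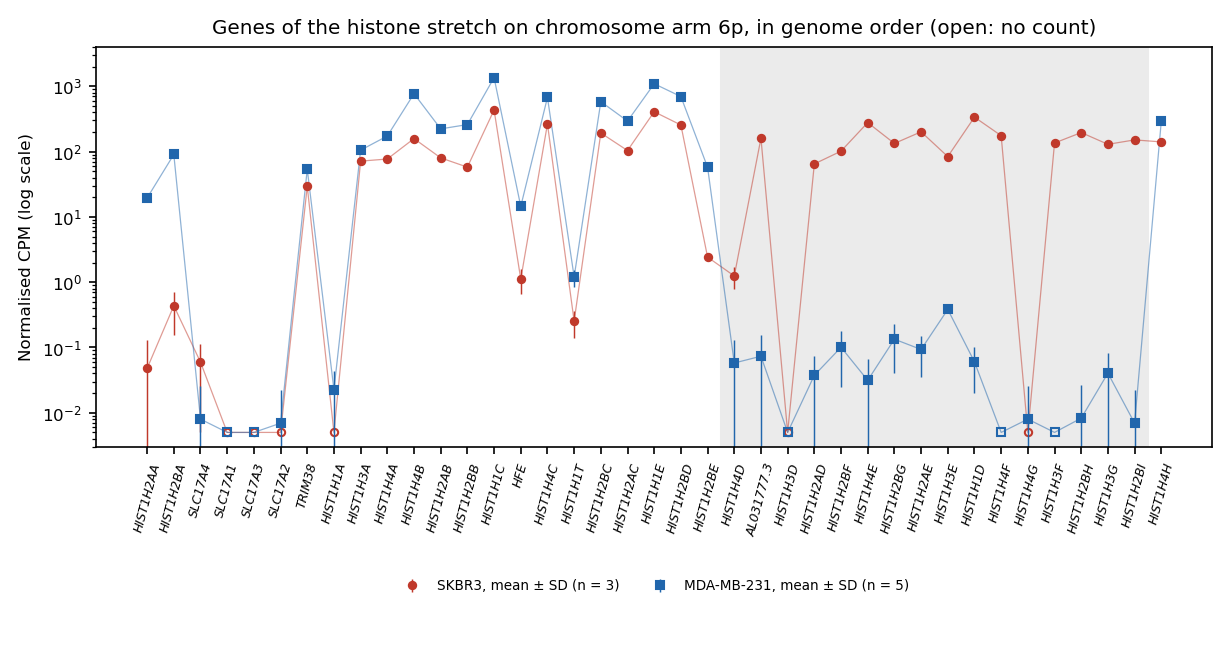
Mean normalised CPM, on a log scale, of the protein-coding rows of the 6p histone stretch in genome order in SKBR3 (red, n = 3) and MDA-MB-231 (blue, n = 5), with rows that had no count at the foot. From HIST1H4D to HIST1H2BI the MDA-MB-231 points are at 0.383 CPM or less, while 13 of the 16 SKBR3 points stay at 50 CPM or more.

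Promoters of an H1 gene and an H2B gene outside the block and of one of each inside it are shown, because both sets carry the CCAAT box that is common in histone promoters. RefSeq windows were matched for 30 of the 32 HIST1 genes. The box (CCAAT, or ATTGG on the other strand) was within 150 bases before the start in 12 of 15 genes inside the block and in 13 of 15 outside it, against 27.8% of all genes with a window. TATAAA (or TTTATA) was in 6 of 15 inside and 10 of 15 outside, against 8.3%, and the H1 box AAACACA (or TGTGTTT) in 1 and 3, against 3.37%. HIST1H1D is the only H1 gene inside the block, and HIST1H1A, HIST1H1C, HIST1H1E and HIST1H1T lie outside it. The H1 box counts of the sets are therefore not comparable. The sequences are the 150 bases before the start, on the gene's strand, from RefSeq on GRCh38.p14, with matches to these motifs in capitals.
HIST1H1E: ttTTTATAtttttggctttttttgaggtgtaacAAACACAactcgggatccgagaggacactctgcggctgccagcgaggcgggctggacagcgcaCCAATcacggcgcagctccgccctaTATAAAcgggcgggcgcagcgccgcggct
HIST1H2BC: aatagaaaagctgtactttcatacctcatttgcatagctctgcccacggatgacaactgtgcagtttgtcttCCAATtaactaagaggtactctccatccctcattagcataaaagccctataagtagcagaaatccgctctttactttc
HIST1H1D: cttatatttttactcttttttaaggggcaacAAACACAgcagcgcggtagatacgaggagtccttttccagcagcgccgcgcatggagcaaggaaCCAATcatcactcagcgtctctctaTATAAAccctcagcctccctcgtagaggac
HIST1H2BH: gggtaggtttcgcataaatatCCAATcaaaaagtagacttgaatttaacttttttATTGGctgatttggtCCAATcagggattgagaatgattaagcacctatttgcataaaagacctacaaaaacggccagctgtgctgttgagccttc
HIST1H1E lies at chr6:26156179-26156328 and HIST1H2BC at chr6:26123927-26124076, both outside the block. HIST1H1D lies at chr6:26234988-26235137 and HIST1H2BH at chr6:26251464-26251613, both inside it. All 4 windows hold at least 1 of the motifs, and nothing about factor binding follows from that.

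On chromosome 17, HOXB3, HOXB4, HOXB7, HOXB8 and HOXB9, which give cells a position along the body axis, had 3 counts in sum in SKBR3, and HOXB9 had 52.4, 49.1, 47.2, 48.3 and 45.4 CPM in the MDA-MB-231 libraries and no count in any of the 3 SKBR3 libraries. HOXC13 was the opposite, with 28.2, 23 and 25.7 CPM in the SKBR3 libraries and 0, 0.0762, 0.0346, 0.0421 and 0 CPM in the MDA-MB-231 libraries, 704-fold higher in SKBR3 (adjusted p = 1.67e-19). Of 18 tested HOX genes, 9 were higher in MDA-MB-231 and 4 in SKBR3. On the X chromosome, 15 neighbours from ARMCX4 to BEX3 held 12 genes higher in MDA-MB-231 and 1 higher in SKBR3, with a window median log2 fold change of -4.3. On chromosome arm 6q, the window with LAMA2, ENPP1 and CCN2 had a median of -4.83, and 11 of its 15 genes were higher in MDA-MB-231. On chromosome 11, the window with CTSD and TH had a median of 3.47, with 8 of 15 genes higher in SKBR3 and 4 higher in MDA-MB-231. CTSD, the lysosomal protease cathepsin D, had 1274, 1322 and 1517 CPM in the SKBR3 libraries and 111, 111, 107, 102 and 98.5 CPM in the MDA-MB-231 libraries, 12.9-fold higher in SKBR3 (adjusted p = 1.06e-19). Of the 31-base stretches of CTSD, 47.8% also occur in other transcripts. AC068580.4, another of the 8 genes, overlaps CTSD, so reads may have been split between these rows. TH, the enzyme that starts catecholamine synthesis, had 24.3, 25 and 30.3 CPM in the SKBR3 libraries and 0.0413, 0.0762, 0.104, 0.126 and 0.0799 CPM in the MDA-MB-231 libraries, 293-fold higher.

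Cytokines and growth factors were higher in MDA-MB-231 for 24 of 36 tested members and in SKBR3 for 5, with a median log2 fold change of -2.77. LIF, a cytokine of the interleukin-6 family, had 60.5, 63.2, 59.6, 61 and 59 CPM in the MDA-MB-231 libraries and 0.591, 0.596 and 0.896 CPM in the SKBR3 libraries, 82.7-fold higher in MDA-MB-231 (adjusted p = 1.54e-21). IL11, of the same family, was 52.9-fold higher, and IL6 was 41.2-fold higher, at 2.89 against 0.0639 CPM. CXCL8 (interleukin-8), which attracts neutrophils, had 6.65, 6.29, 7, 6.78 and 8.86 CPM in the MDA-MB-231 libraries and 0.215, 0.265 and 0.0717 CPM in the SKBR3 libraries, 42.3-fold higher in MDA-MB-231. FGF5 was 67.8-fold higher there, and BDNF, a neurotrophin, stood at 31.9 against 0.0221 CPM, a ratio of 1970-fold (95% counting interval 353 to 77800). PDGFB, a growth factor for mesenchymal cells, was 26.8-fold and CX3CL1, a membrane-bound chemokine, 13.3-fold higher in SKBR3.

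The NF-kappaB genes had 9 of 21 tested members higher in MDA-MB-231 and 3 higher in SKBR3. CD40, a receptor of the TNF family, and ICAM1, an adhesion protein, were 9.38-fold and 9.75-fold higher in MDA-MB-231. NFKBIA, the inhibitor that NF-kappaB induces, was 2.7-fold higher in SKBR3, as was BCL3, 2.77-fold. Of 40 tested interferon-stimulated genes, 22 were higher in MDA-MB-231 and 4 in SKBR3. IFI27 was 42.6-fold, HERC5 42.9-fold and IFIT3 59.2-fold higher in MDA-MB-231. IFIH1, the sensor MDA5 of double-stranded RNA, had 28.4, 30.0 and 29.5 CPM in the SKBR3 libraries and 1.2, 1.75, 1.77, 1.73 and 1.84 CPM in the MDA-MB-231 libraries, 17.6-fold higher in SKBR3 (adjusted p = 2.89e-18), and USP18 was 11.3-fold higher there.

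Antigen presentation and immune ligand genes were higher in MDA-MB-231 for 12 of 24 tested members and in SKBR3 for 2 (1 in SKBR3 without SKBR3 library 3). CD274, which encodes PD-L1, had 39.2, 39.8, 39.7, 42.6 and 39.6 CPM in the MDA-MB-231 libraries and 4.08, 3.51 and 3.08 CPM in the SKBR3 libraries, 11.5-fold higher in MDA-MB-231 (adjusted p = 1.45e-17). CD74, the invariant chain of class II molecules, had 40.6, 43.7, 44.2, 37.9 and 39.6 CPM in the MDA-MB-231 libraries and 0.161, 0.265 and 0.143 CPM in the SKBR3 libraries, 224-fold higher, and NLRC5, an activator of class I genes, was 21.8-fold higher. B2M, the light chain of class I molecules, had 223, 221, 236, 244 and 286 CPM in the MDA-MB-231 libraries and 235, 271 and 265 CPM in the SKBR3 libraries (log2 fold change 0.09 ± 0.09 (SE), adjusted p = 1).

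Of 39 tested fatty acid and triglyceride genes, 15 (38.5%) were higher in MDA-MB-231 and 7 (17.9%) in SKBR3, with a median log2 fold change of -0.19. The background was 22.7% and 18.3%, so the share toward SKBR3 was near it. FASN, the synthase that builds palmitate, had 6712, 7282 and 8916 CPM in the SKBR3 libraries and 889, 837, 851, 822 and 755 CPM in the MDA-MB-231 libraries, 9.19-fold higher in SKBR3 (adjusted p = 5.75e-11). SREBF1, the factor that drives lipid synthesis genes, was 4.83-fold higher, at 479 against 99.2 CPM. SCD, which makes the first double bond, stood at 1458 ± 25.7 CPM in SKBR3 and 2598 ± 160.3 CPM in MDA-MB-231 (log2 fold change -0.83 ± 0.05 (SE), adjusted p = 1). The desaturases of polyunsaturated fatty acids were nearly absent from SKBR3: FADS2 had 272, 260.2, 270.0, 244 and 224 CPM in the MDA-MB-231 libraries and 0.483, 0.596 and 0.609 CPM in the SKBR3 libraries, 443-fold higher in MDA-MB-231 (adjusted p = 1.65e-20), and FADS1 was 126-fold higher. ACSL4, which activates polyunsaturated fatty acids, had 223, 237, 231, 230.3 and 233 CPM in the MDA-MB-231 libraries and 1.07, 1.06 and 0.609 CPM in the SKBR3 libraries, 266-fold higher in MDA-MB-231 (adjusted p = 1.21e-24).

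Cholesterol genes were higher in MDA-MB-231 for 13 of 29 tested members and in SKBR3 for 3. SQLE, squalene epoxidase, was 5.78-fold and the exporter ABCG1 39-fold higher in SKBR3, whereas the exporter ABCA1 was 5.33-fold higher in MDA-MB-231. ACAT2, also of the majority direction, was 5.18-fold higher in MDA-MB-231, at 198 against 38.3 CPM. Of its 31-base stretches, 50.3% also occur in other transcripts.

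Of 36 tested glycolysis genes, 11 (30.6%) were higher in SKBR3, against a background of 18.3%. The 8 (22.2%) higher in MDA-MB-231 were near the background of 22.7%. The median log2 fold change was -0.02, equal to that of all genes. ENO2, an enolase isoform, had 69.2, 66.3, 66.2, 63.6 and 62.2 CPM in the MDA-MB-231 libraries and 0.268, 0.0662 and 0.287 CPM in the SKBR3 libraries, 282-fold higher in MDA-MB-231, while ALDOC, an aldolase isoform, was 5.03-fold higher in SKBR3. Among glucose transporters, SLC2A3 was 18.4-fold higher in MDA-MB-231 and SLC2A8 4.33-fold in SKBR3. LDHB, a lactate dehydrogenase chain, stood at 268 ± 16.1 CPM in SKBR3 and 499 ± 14.6 CPM in MDA-MB-231 (log2 fold change -0.90 ± 0.044 (SE), adjusted p = 1). Hypoxia targets were higher in MDA-MB-231 for 13 of 26 and in SKBR3 for 4. ADM was 9.55-fold higher in MDA-MB-231, and EPAS1 (HIF-2 alpha) 6.04-fold and NDRG1 3.32-fold higher in SKBR3.

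Of 23 tested serine, glycine and folate enzymes, 5 were higher in MDA-MB-231 and 3 in SKBR3. Neither share was above its background, 22.7% for MDA-MB-231 and 18.3% for SKBR3, so the list as a whole did not stand out. GLDC, which splits glycine in mitochondria, had 88.5, 83.1 and 86.4 CPM in the SKBR3 libraries and 1.2, 0.686, 1.11, 1.18 and 0.998 CPM in the MDA-MB-231 libraries, 83.1-fold higher in SKBR3 (adjusted p = 4.08e-23). PHGDH, the first enzyme of serine synthesis, was 2.65-fold higher in MDA-MB-231, at 48.1 against 17.9 CPM. Of 36 tested glutamine and glutathione genes, 10 (27.8%) were higher in MDA-MB-231 and 9 (25.0%) in SKBR3, against the same background. GPX1, a glutathione peroxidase, had 249.9, 223, 227, 204 and 248 CPM in the MDA-MB-231 libraries and 0.591, 0.331 and 0.394 CPM in the SKBR3 libraries, 519-fold higher in MDA-MB-231 (adjusted p = 3.26e-19). GSTP1, a glutathione transferase, was 17.7-fold higher there, and GSR, the glutathione reductase, 3.34-fold higher in SKBR3.

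NRF2 targets were higher in MDA-MB-231 for 7 of 30 and in SKBR3 for 4, shares near the background. AKR1B1, an aldose reductase, had 459, 441, 459, 401 and 435 CPM in the MDA-MB-231 libraries and 0.322, 0.397 and 0.287 CPM in the SKBR3 libraries, 1330-fold higher in MDA-MB-231 (adjusted p = 2.14e-25). SLC7A11, the cystine transporter, was 7.77-fold higher there. NQO1, a quinone reductase, stood at 137 ± 2.63 CPM in SKBR3 and 94.9 ± 5.19 CPM in MDA-MB-231 (log2 fold change 0.52 ± 0.045 (SE), adjusted p = 1).

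Mitochondrially encoded mRNAs took a larger share of the SKBR3 libraries. Counts on mitochondrially encoded genes were 6.46 ± 0.717% of all counts in SKBR3 and 3.31 ± 0.233% in MDA-MB-231 (exact permutation test, two-sided p = 0.0357, the smallest this design allows). Of the 13 mRNAs, 5 were higher in SKBR3 past 2-fold and none in MDA-MB-231, with a median log2 fold change of 1.02. Without SKBR3 library 3 the count was 8. MT-CO1, a subunit of cytochrome oxidase, was 2.82-fold higher in SKBR3, at 22450 against 7973 CPM, though 66.7% of its 31-base stretches recur elsewhere among transcripts. More mitochondrial mRNA and less of other mRNA per cell cannot be told apart in such a share. Of 79 nuclear genes of oxidative phosphorylation, 6 were higher in SKBR3 and 3 in MDA-MB-231, both below the background of 18.3% and 22.7%, and without SKBR3 library 1 the second count was 5. Among these 9 genes was NDUFB9, a complex I subunit, with 1027, 952 and 919.6 CPM in the SKBR3 libraries and 52.9, 44.3, 50.2, 47.1 and 56.6 CPM in the MDA-MB-231 libraries, 19.2-fold higher in SKBR3 (adjusted p = 5.25e-17). UQCRB, a complex III subunit, was 6.24-fold higher in MDA-MB-231.

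Genes of G2 and mitosis were higher in MDA-MB-231 for 21 of 36 tested members and in SKBR3 for none, with a median log2 fold change of -1.21. BUB1, a kinase of the spindle checkpoint, had 369.7, 373, 375, 372 and 386 CPM in the MDA-MB-231 libraries and 66.2, 67 and 63.9 CPM in the SKBR3 libraries, 5.72-fold higher in MDA-MB-231 (adjusted p = 6.43e-20). AURKB, the mitotic kinase aurora B, was 5.71-fold higher. Both lines were seeded at the same stated confluence, and the sources used here give no growth rate. Of 28 tested G1 genes, 10 were higher in MDA-MB-231, among them CCNE2 (5.13-fold) and CDKN1A (5.65-fold), and 3 in SKBR3. For CCNE2, 36.0% of the 31-base stretches also occur in other transcripts. RB1 stood at 65.9 ± 1.32 CPM in SKBR3 and 129 ± 7.32 CPM in MDA-MB-231 (log2 fold change -0.96 ± 0.049 (SE), adjusted p = 0.949).

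Nuclear receptors were divided, 12 of 32 (37.5%) higher in SKBR3 and 11 (34.4%) in MDA-MB-231, against 18.3% and 22.7% of all genes. NR2F2 (COUP-TFII) had 152, 173, 158, 152 and 157 CPM in the MDA-MB-231 libraries and 3.27, 3.24 and 3.55 CPM in the SKBR3 libraries, 46.7-fold higher in MDA-MB-231 (adjusted p = 7.23e-23). NR4A1 was 18.3-fold and VDR, the vitamin D receptor, 4.36-fold higher in SKBR3.

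NOTCH3, a receptor of the Notch pathway, had 103, 108 and 128 CPM in the SKBR3 libraries and 3.26, 3.77, 4.36, 4.34 and 3.51 CPM in the MDA-MB-231 libraries, 29.4-fold higher in SKBR3 (adjusted p = 9.6e-19). JAG1, a ligand, had 251, 259, 255, 245 and 238 CPM in the MDA-MB-231 libraries and 9.72, 9.66 and 9.61 CPM in the SKBR3 libraries, 25.8-fold higher in MDA-MB-231 (adjusted p = 8.5e-24). Of 25 tested members, 9 were higher in MDA-MB-231 and 6 in SKBR3. Wnt genes were higher in MDA-MB-231 for 16 of 34 (47.1%) and in SKBR3 for 7 (20.6%), the second share near its background. DKK1, a secreted inhibitor, was 171-fold and the receptor FZD7 81.5-fold higher in MDA-MB-231. The ligand WNT7B was 4.02-fold and the feedback inhibitor NKD1 12.5-fold higher in SKBR3.

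The TGF-beta and BMP ligands also differed by line. BMP7 had 229, 223 and 244 CPM in the SKBR3 libraries and 0.0826, 0, 0.0346, 0.253 and 0.12 CPM in the MDA-MB-231 libraries, 2350-fold higher in SKBR3 (adjusted p = 1.12e-22). BMP4 had 77.2, 78.3, 75.7, 73.9 and 73.2 CPM in the MDA-MB-231 libraries and 0.107, 0.0662 and 0.0717 CPM in the SKBR3 libraries, 876-fold higher in MDA-MB-231 (adjusted p = 4.45e-23). The extracellular inhibitors FST (follistatin) and NOG (noggin) were 839-fold and 256-fold higher in MDA-MB-231. TGFB3 was 32.1-fold higher in SKBR3, and ID2 and ID3, targets of BMP signalling, 13.2-fold and 13.4-fold. Of 45 tested members, 17 (37.8%) were higher in MDA-MB-231 and 11 (24.4%) in SKBR3, against 22.7% and 18.3% of all genes.

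Among annexins and S100 proteins, which bind calcium, S100P was 464-fold higher in SKBR3, as S100A8, S100A9 and S100A14 were, and ANXA1 and ANXA2 were 69.1-fold and 16.8-fold higher in MDA-MB-231. S100A2 was 44.5-fold higher in MDA-MB-231, and ANXA8 2.7-fold higher in SKBR3, with 79.2% of its 31-base stretches found elsewhere. Of 27 tested, 8 (29.6%) were higher in each line, against 18.3% of all genes for SKBR3 and 22.7% for MDA-MB-231. Cancer-testis antigens, normally silent outside germ cells, were higher in SKBR3 for 8 of 19 and in MDA-MB-231 for 7. MAGEA6 was 19.4-fold higher in SKBR3, with 69.7% of its 31-base stretches shared, and SPANXB1 at least 455-fold higher in MDA-MB-231. PRAME, a tumour antigen, had no count in any of the 8 libraries.

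**Figure D5:**
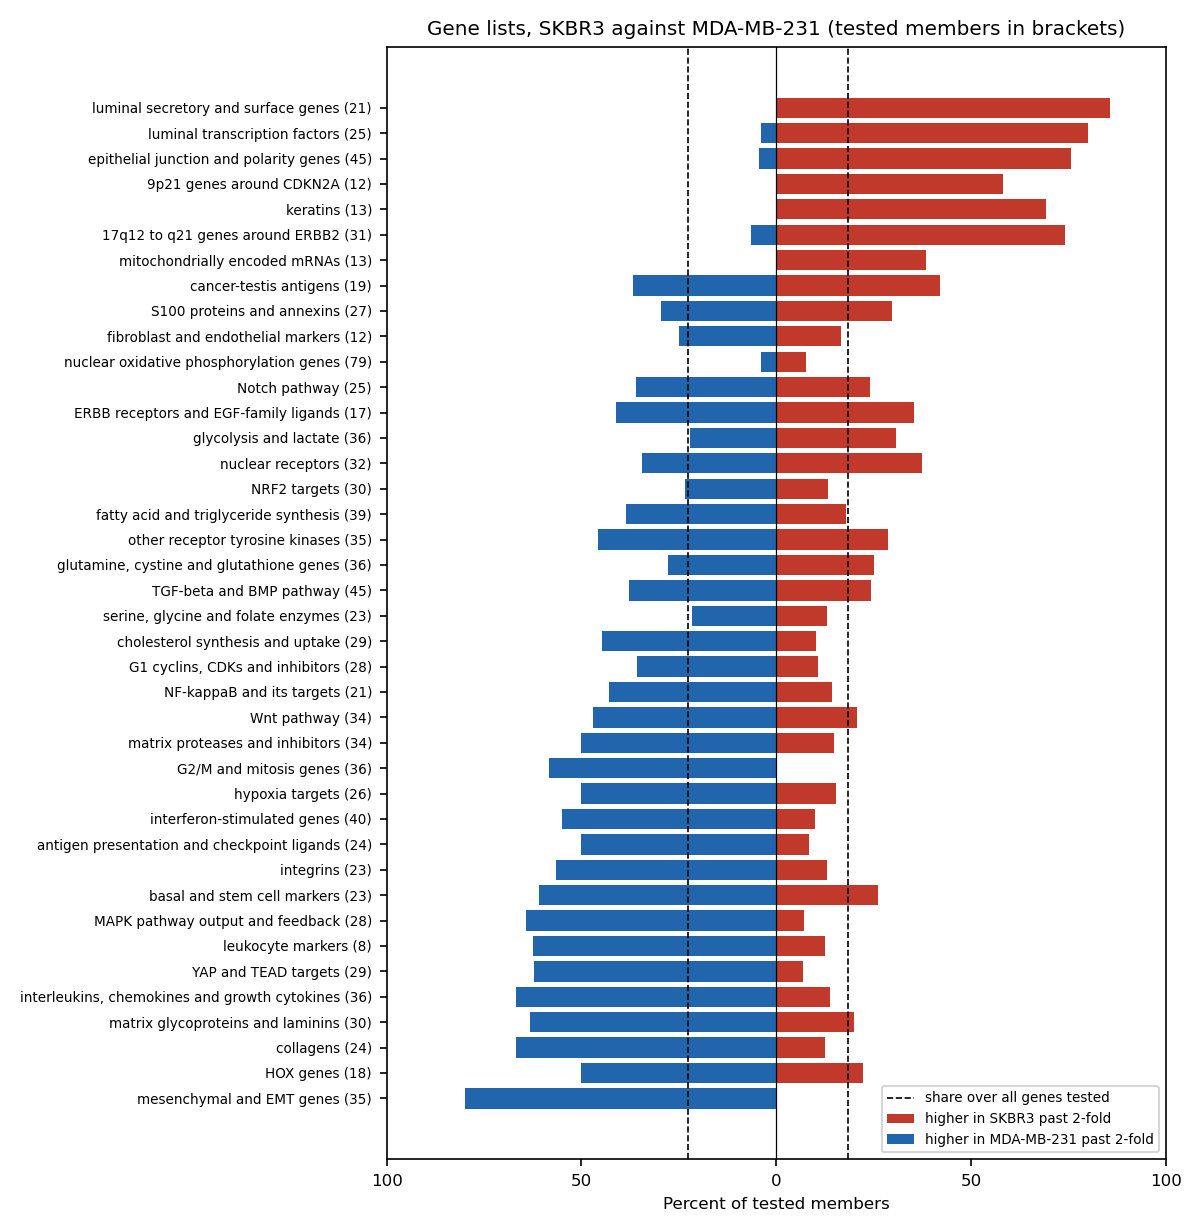
Number of tested members of each gene list plotted that were higher past 2-fold in SKBR3 (red) or in MDA-MB-231 (blue), as a percent of tested members, with dashed lines at the background of 18.3% and 22.7%. Luminal, secretory and junction lists extend toward SKBR3 and the mesenchymal list toward MDA-MB-231, while nuclear oxidative phosphorylation genes lie under the background in both directions.

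Markers of other cell types were summed in each library. The leukocyte list of 21 genes summed to 50.4 to 57.1 CPM in SKBR3 and to 78.0 to 85.1 CPM in MDA-MB-231, and MS4A1, NKG7, TYROBP and AIF1 were at 0 in all 8 libraries. The fibroblast and endothelial list of 18 summed to 40.6 to 45.5 CPM in SKBR3 and 29.5 to 34.9 CPM in MDA-MB-231. CSF1R in SKBR3 and CD68 in MDA-MB-231 (41.9 against 5.64 CPM, with 81.2% of its stretches shared) are members of the first list, and CDH5, an endothelial cadherin (17.3 against 0.116 CPM), of the second. The part of other cells in any result was not tested.

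Spread between libraries of a line was small beside these differences. The median coefficient of variation was 4.39% over 7497 genes in SKBR3 and 4.33% over 7886 in MDA-MB-231, counting protein-coding genes whose mean reached 20 CPM. The widest spread in SKBR3 was that of FAM83H, at 27.7, 23.1 and 52.8 CPM, and of ANKRD30BL, at 2812, 4742 and 6600 CPM. In MDA-MB-231 it was that of MARF1, at 23.7, 48.2, 14.9, 46.1 and 43.3 CPM. Of the 31-base stretches of ANKRD30BL, 48.9% also occur in other transcripts, so its counts are uncertain.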

How the data were processed

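RNA sequencing libraries of 8 untreated samples were used, 3 of SKBR3 and 5 of MDA-MB-231. The deposited table holds estimated counts per gene as whole numbers, made with Salmon on GRCh38, and edgeR is also named, per the submitters' processing notes. For tool versions, the annotation and the step from transcripts to genes: not given in the sources used here. In the file headers, SKBR3 columns carry part of the other line's name, and they were assigned by the labels. The SKBR3 control headers also carry a time mark that the MDA-MB-231 control headers lack. The 35106 gene rows were matched by ID to GENCODE 29 for 35003. Totals of 14723152 to 29294865 counts per library set the floors of detection, and intervals and floors cover counting error only.

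Counts were analysed with edgeR 4.0.16 in R 4.3.3 (TMM scaling, filterByExpr, line as the only term), with the quasi-likelihood test and the quasi-likelihood test against 2-fold, and p-values were adjusted by Benjamini-Hochberg over all 16398 genes tested, with a threshold of 0.05. CPM values use the effective library sizes, and values per kilobase divide by merged exon length. The script was tested on simulated data. DESeq2 1.42.0 and limma 3.58.1 served as alternatives, with other scalings, filters, thresholds, thinning, a replicate block and each library left out. The share of a gene's 31-base stretches found in transcripts of other genes was used to mark uncertain counts.

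Named genes were the 12 largest fitted fold changes in each direction among protein-coding genes with at least 50 CPM in the higher line and no overlap, a panel of 74 genes, up to 4 members of each list per direction with at least 10 CPM, genes of the described stretches, and the 5 most variable genes of each line. CDS1 and CRB3 lie outside that rule. The 41 gene lists and the genes in them (1345 members, 3 with no row) were chosen with earlier results of these data known. Some genes of these lists are not reported here.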

Additional observations from a re-analysis of the deposited data

Results flagged for a closer look

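Within the 5 MDA-MB-231 libraries, 201 of the named genes could be tested for a library far from the rest (Dixon's test, gap over range above 0.71), and 10 (4.98%) had one. Chance gives about 1 in 20. The 3 SKBR3 libraries are too few for this test. Library 4 was involved 4 times. It was the highest for CD274, at 42.6 CPM against 39.3 to 39.8 CPM in the others. It was the lowest for HIST1H4H (266 CPM, others from 296.8 CPM), for KRT81 (43.5 CPM, others from 51.1 CPM) and for PLAUR (102 CPM, others from 108 CPM). Library 2 was the highest for CAVIN2 (69 CPM, others up to 63.6 CPM) and for NOG (24.5 CPM, others up to 21.9 CPM), and the lowest for SLC2A8 (4.65 CPM, others from 5.55 CPM). Library 5 was the highest for CXCL8 (8.86 CPM, others up to 7 CPM) and the lowest for TGFB3 (4.35 CPM, others from 5.29 CPM). Library 1 was the lowest for IFIH1 (1.2 CPM, others from 1.73 CPM). Each of these gaps is smaller than the difference between the lines. HIST1H4H, at a mean of 293 CPM in MDA-MB-231 and 141 CPM in SKBR3, did not pass the test against 2-fold.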

How the results depend on the processing

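The number of genes past 2-fold moved by over 1.5 times only where the fold tested against was changed: 4545 genes were higher in SKBR3 in the test against 1.5-fold, and in the test against 4-fold 1389 were higher in SKBR3 and 2090 in MDA-MB-231. Leaving out each library in turn gave 2901 to 3148 genes higher in SKBR3 and 3544 to 3728 higher in MDA-MB-231. DESeq2 gave 2584 and 3347, and limma voom 2811 and 3508. With the replicate number as a block, 3018 and 3678 genes passed 2-fold. The deviations of same-numbered libraries correlated at -0.109, -0.0876 and 0.0772 over 9886 genes. Other pairs of libraries reached from -0.198 to 0.232. These values show no sign of pairing by number, but 3 pairs are too few to exclude it. None of the 29 list counts of 10 or more moved by over 1.5 times under these alternatives, and 9 smaller ones did: those toward SKBR3 of the mesenchymal, MAP kinase, antigen presentation, mitochondrially encoded and leukocyte lists, and those toward MDA-MB-231 of the secretory, nuclear oxidative phosphorylation, leukocyte, and fibroblast and endothelial lists. Of 4611 values of 243 named genes under 19 alternatives, 4588 kept direction and call, 20 lost the call (DUSP4 and EGR1), 3 gained it (HIST1H4H) and none reversed. For DUSP4 the adjusted p reached 0.587 with DESeq2, and for EGR1 0.333. Genes with few counts in the lower line have folds that depth limits.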
